A study of Homo sapiens with 12 samples.

Results

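The genes that encode the TAL1-LMO2-LDB1 complex and its close partners were examined for intervals listed as bound by GATA1 and TAL1 in control K562 cells. K562 is a human erythroleukemia line. The 6 genes were TAL1, LMO2, LDB1, LYL1, TCF3 and CBFA2T3, each with a fixed window of the hg19 genome, and an interval was counted if at least 1 bp of it lay in a window. Of 24658 distinct intervals in the lists, 32 lay in these windows: 28 of the 22769 GATA1 intervals and 19 of the 8918 TAL1 intervals. Each interval was classed as in both lists (same start and same end), GATA1 only or TAL1 only. Distinct intervals never overlapped in part, the smallest gap between them being 37 bp. The lists thus share a common set of boundaries, and how these were set is not known. Identical ends therefore do not show that the factors were bound at the same bases. The series holds 12 ChIP-seq libraries from control cells and from cells in which GATA1 or TAL1 was knocked down with lentiviral hairpins, with H3K27ac, LDB1 and input among the targets. Only the GATA1 and TAL1 libraries of control cells, 1 per factor, were analysed here, and the labels call these cells control without saying whether they carried a hairpin. The title of the TAL1 library holds the mark Sp and that of the GATA1 library does not. Whatever the mark stands for cannot be told apart from the factor. The other 10 libraries were not analysed here, so nothing below measures an effect of a knockdown.

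TAL1 is a basic helix-loop-helix protein that binds DNA as a dimer with an E protein such as the products of TCF3. LMO2, a small LIM-domain protein, bridges the TAL1 dimer to LDB1 and to GATA1, and LDB1 can self-associate and so bring distant regulatory elements together. LYL1 is the closest relative of TAL1, and CBFA2T3, also called ETO2, is a corepressor that joins the complex in erythroid and megakaryocytic cells. TAL1 is thus both a factor that was precipitated and a gene examined.

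All 6 windows held at least 1 interval present in both lists. Counting all windows, 15 intervals were in both lists, 13 were GATA1 only and 4 were TAL1 only. Of the 28 GATA1 intervals, 15 (53.6%, exact 95% interval 33.9 to 72.5%) were also TAL1 intervals, beside 30.9% of all GATA1 intervals on chromosomes 1 to 22 and X. Of the 19 TAL1 intervals, 15 (78.9%, 54.4 to 93.9%) were also GATA1 intervals, beside 78.9% of all TAL1 intervals. The share seen from the TAL1 side was thus the same as the genome-wide share to the digits given. The share seen from the GATA1 side was higher, but intervals in a window are neighbours and not independent, there was 1 library per factor, and the difference was not tested. It also varied between the windows: without the LMO2 window it was 73.3%, and in the LMO2 window alone it was 30.8% (9.09 to 61.4%). The intervals around the shares cover counting error only.

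**Figure D1:**
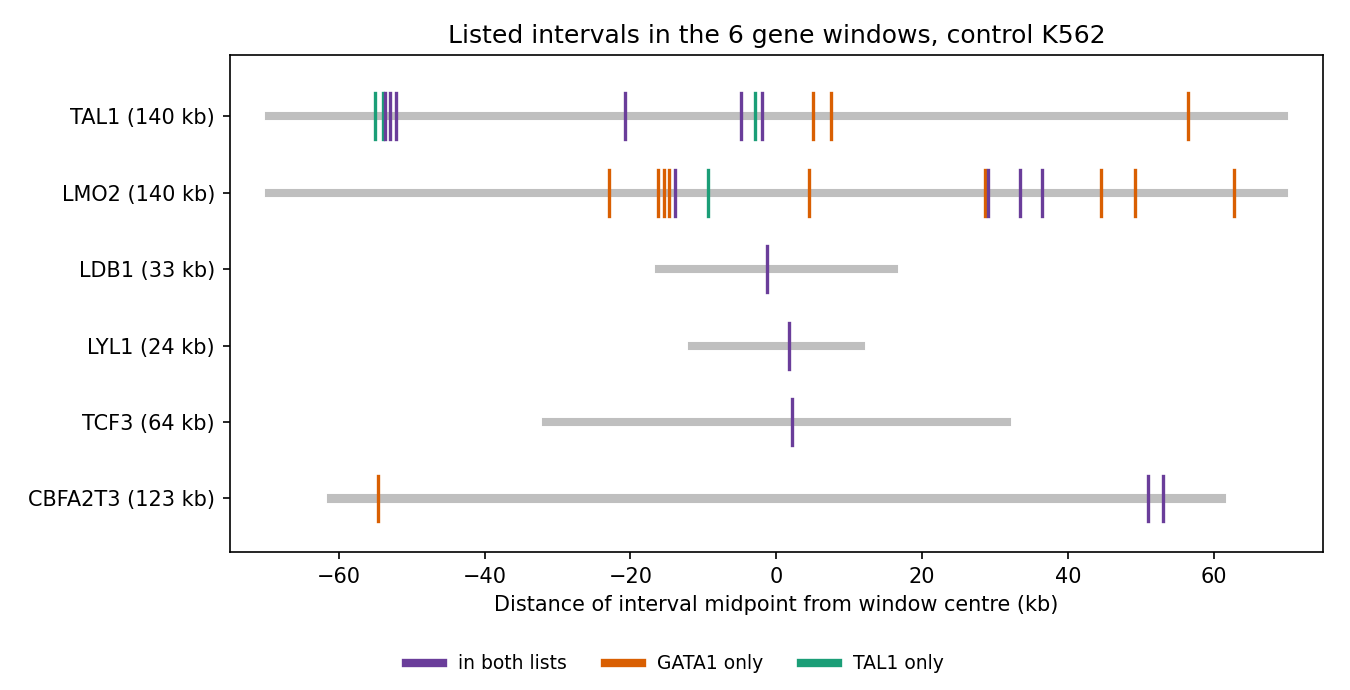
Map of the 6 gene windows in hg19. Each row is a window drawn to length (grey, length in kb), the horizontal axis is the distance in kb from the window centre with genome positions rising to the right, and each vertical mark is the midpoint of 1 interval, coloured by class. The TAL1 and LMO2 windows hold 12 and 14 intervals, and the other windows 1 to 3.

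The windows differ in length, from 24 kb at LYL1 to 140 kb at TAL1 and LMO2, so the numbers are also given per 100 kb. The 6 windows together, 524 kb, held 5.34 GATA1 and 3.63 TAL1 intervals per 100 kb, beside 0.75 and 0.294 over chromosomes 1 to 22 and X, assembly gaps included. Of the 32 intervals, 12 lay in the TAL1 window and 14 in the LMO2 window, so these windows weigh most in the joint densities. By window the GATA1 density ran from 1.56 (TCF3) to 9.29 (LMO2) per 100 kb, and the TAL1 density from 1.56 (TCF3) to 6.43 (TAL1). How the limits of the windows were set is not known, and 4 of them hold between 1 and 3 intervals, so these densities are descriptions.

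The reference starts of TAL1 and LYL1 are shown because of all the starts examined for these genes, they alone hold the letters of a GATA site. RefSeq promoters (GRCh38.p14, 250 bases before to 50 after a gene start) were matched for 5 of the 6 genes, with 6 starts in all. Both strands were searched for AGATAA and TGATAA, which GATA factors recognise, and for CANNTG, the E-box recognised by TAL1 dimers. The stretch of TAL1 lies at chr1:47232336-47232585 and that of LYL1 at chr19:13102851-13103108, both on the minus strand, printed 5′ to 3′ with the GATA letters, read on the opposite strand, in capitals.
TAL1 start: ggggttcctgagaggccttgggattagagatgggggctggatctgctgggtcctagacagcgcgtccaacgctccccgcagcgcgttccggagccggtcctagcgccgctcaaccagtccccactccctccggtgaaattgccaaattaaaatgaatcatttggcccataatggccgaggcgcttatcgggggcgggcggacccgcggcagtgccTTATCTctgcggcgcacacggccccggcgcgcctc
LYL1 start: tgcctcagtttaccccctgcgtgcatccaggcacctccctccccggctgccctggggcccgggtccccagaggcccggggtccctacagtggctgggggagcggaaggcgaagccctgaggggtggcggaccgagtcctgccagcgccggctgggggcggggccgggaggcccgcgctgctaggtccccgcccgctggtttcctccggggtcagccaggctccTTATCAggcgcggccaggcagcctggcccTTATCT
In TAL1 the match begins 35 bases before the start. In LYL1 the first match begins 27 bases before the start and the second 2 bases after its first base. At least 1 match was found in 16.3% of 35116 RefSeq promoters of this length and at least 2 matches in 2.87%. CANNTG occurred once at this TAL1 start (catttg) and once at the CBFA2T3 start (caggtg), and in 68.7% of all promoters. Neither motif occurred at the other TAL1 start or at those of LDB1 and TCF3. The intervals are given in hg19 and the promoters in GRCh38.p14, so whether an interval covers these letters was not determined, and a match is a description of the letters only.

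TAL1 itself, the gene of one of the precipitated factors, had 9 GATA1 and 9 TAL1 intervals in its window (chromosome 1, 47630 to 47770 kb). In this window 6 intervals were in both lists, 3 were GATA1 only and 3 were TAL1 only. Among stretches of the same length laid end to end over chromosomes 1 to 22 and X, 0.0784% held at least 9 TAL1 intervals, 1.59% held at least 9 GATA1 intervals and 0.351% held at least 6 in both lists. Of these stretches 64.7% held no interval at all, assembly gaps included. Among the 7651 that held any, 0.993% had at least 6 in both lists. The density was 6.43 per 100 kb for each factor, whereas the 1 Mb on either side of the window had 1.3 GATA1 and 0.4 TAL1 intervals per 100 kb. In the RefSeq annotation TAL1 lies between the protein-coding genes PDZK1IP1 and STIL. An interval in the window may therefore lie at a neighbouring gene.

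The TAL1 intervals fell in 2 dense stretches, a single interval between them, and none beyond. The first stretch (47644838 to 47647946) held 5 intervals within 3.11 kb, all of them TAL1 intervals and 3 of them also GATA1 intervals. In order of position they were TAL1 only (47644838 to 47645168, 331 bp), TAL1 only (47645996 to 47646134, 139 bp), both (47646266 to 47646421, 156 bp), both (47646761 to 47647287, 527 bp) and both (47647667 to 47647946, 280 bp). The gaps between them were 827, 131, 339 and 379 bp. When intervals up to 2 kb apart were joined over the whole genome, 693 of 20034 joined sites (3.46%) held 3 or more intervals, and 21 (0.105%) held 5 or more. Against that background, 3 of the 21 joined sites in the 6 windows held 3 or more, namely this one, the second TAL1 stretch and a stretch at LMO2.

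The interval between the stretches was in both lists (47679098 to 47679302, 205 bp) and lay 31151 bp from the first stretch and 15660 bp from the second. The second stretch (47694963 to 47698231) held 3 TAL1 intervals within 3.27 kb, 2 of them also GATA1 intervals. Its outer intervals were in both lists (47694963 to 47695374, 412 bp, and 47697950 to 47698231, 282 bp). The one between them was TAL1 only (47697060 to 47697186, 127 bp) and was the narrowest interval in the 6 windows. The remaining intervals of the window were all GATA1 only: 47704943 to 47705208 (266 bp), 47707299 to 47707804 (506 bp) and 47756403 to 47756688 (286 bp). Along the chromosome the window thus changed from intervals that all held TAL1 to intervals that held GATA1 alone, with 6711 bp between the last TAL1 interval and the first of these.

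**Figure D2:**
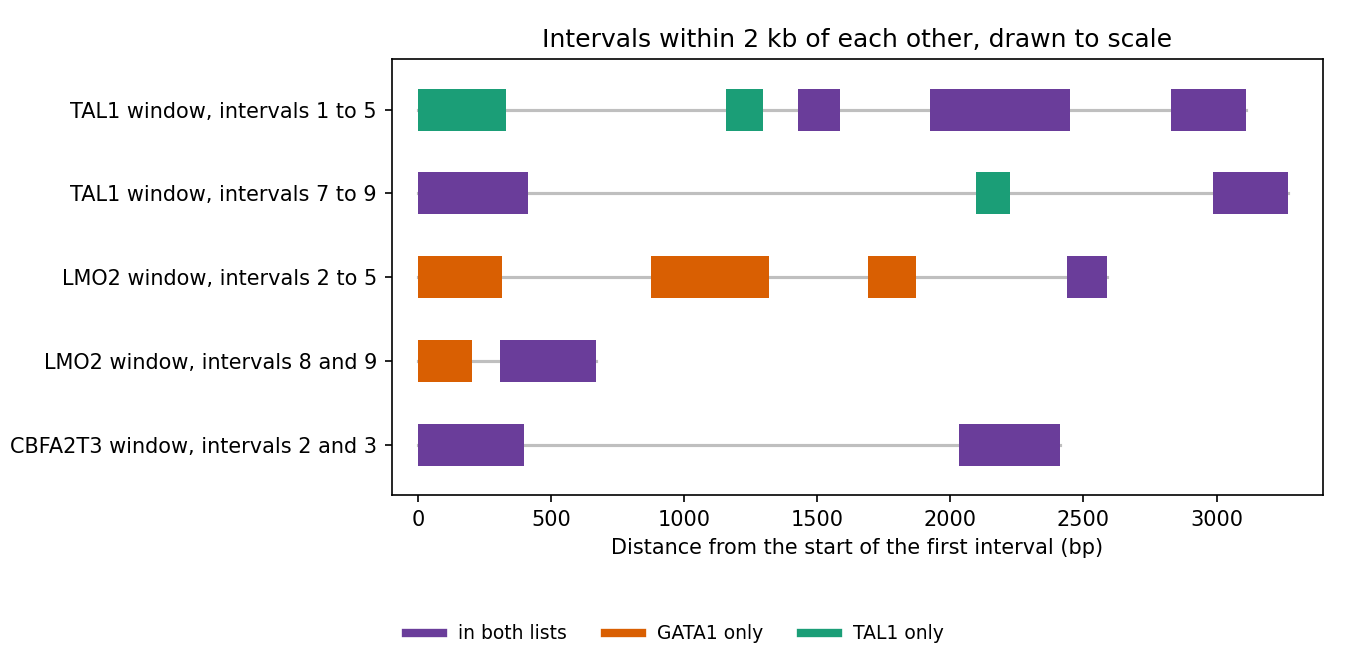
Intervals within 2 kb of each other in the TAL1, LMO2 and CBFA2T3 windows, drawn to scale. The horizontal axis is the distance in bp from the start of the first interval of each stretch, each box is 1 interval and its colour is its class. All 8 boxes in the TAL1 window hold TAL1, and 4 of the 6 in the LMO2 window are GATA1 only, beside 15740 of 24654 intervals over chromosomes 1 to 22 and X. Intervals farther than 2 kb from any other are not drawn, among them the 3 GATA1-only intervals of the TAL1 window.

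LYL1, the relative of TAL1, had 1 interval in its window of 24 kb (chromosome 19, 13200 to 13224 kb), and it was in both lists. It ran from 13213408 to 13214165 and at 758 bp was the widest of the 32 intervals, wider than 96.8% of all intervals in both lists. Its nearest neighbour lay 22689 bp away. Among stretches of 24 kb, 4.41% held an interval in both lists, and 35.7% of those that held any interval. LYL1 lies between NFIX and TRMT1 in the RefSeq annotation. With 25 kb added on each side, the window held 2 intervals in both lists and 1 GATA1 only.

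TCF3 encodes the E proteins E12 and E47, which pair with TAL1. Its window of 64 kb (chromosome 19, 1599 to 1663 kb) held 1 interval in both lists, from 1632971 to 1633263 (293 bp). The nearest interval of any kind was 42640 bp away and the nearest other TAL1 interval 114358 bp away. TCF3 was the window with the lowest GATA1 density, at 1.56 per 100 kb, below the 3.2 per 100 kb in the 1 Mb on either side. For TAL1 the values were 1.56 and 1.55. The densities of the window rest on 1 interval, and with 25 kb added on each side it also held 2 GATA1-only intervals. The GATA1 value is thus no evidence of a depletion. Among stretches of 64 kb, 10.1% held at least 1 interval in both lists, and 42.9% of those that held any interval. Both were the highest such shares among the 6 windows. These shares depend on the stretch length and on the count required, which differ between the windows.

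LMO2, the bridging protein, had 14 distinct intervals in 140 kb (chromosome 11, 33860 to 34000 kb), 13 in the GATA1 list and 5 in the TAL1 list. This was more GATA1 intervals than at TAL1 (9) and fewer TAL1 intervals (also 9 there). In contrast to the TAL1 window of the same length, 9 were GATA1 only, 4 were in both lists and 1 was TAL1 only. The share in both lists at LMO2, 28.6% (8.39 to 58.1%), was near the 28.5% of all intervals on chromosomes 1 to 22 and X. Of those 24654 intervals, 15740 were GATA1 only, so a predominance of GATA1-only intervals is not particular to LMO2. In the TAL1 window 6 of 12 intervals were in both lists, and whether that departs from the genome-wide share was not tested. Among stretches of 140 kb, 0.369% held at least 13 GATA1 intervals and 1.19% at least 5 TAL1 intervals. At least 4 in both lists were held by 1.68% of the stretches (4.76% of those that held any interval). The GATA1 density of 9.29 per 100 kb was above the 1.85 per 100 kb of the 1 Mb on either side, and that of TAL1 was 3.57 beside 0.6. LMO2 lies between FBXO3 and CAPRIN1 among the protein-coding genes of RefSeq.

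Of the 14 intervals at LMO2, 12 fell into 2 groups when gaps of up to the joining distance given with the processing were bridged. The other two, both GATA1 only, stood alone at 33934231 to 33934659 (429 bp), between the groups, and at 33992647 to 33992913 (267 bp), the last of the window. The first group spanned 13.9 kb (33906853 to 33920725) and held 6 intervals, 1 of them in both lists (33915996 to 33916147, 152 bp). That interval closed a run of 4 within 2.59 kb whose other 3 were GATA1 only, including the widest GATA1-only interval at LMO2 (33914435 to 33914875, 441 bp). It was narrower than all but 6.23% of the intervals in both lists. The first interval of the window, GATA1 only, was at 33906853 to 33907234 (382 bp). The TAL1-only interval (33920510 to 33920725, 216 bp) ended this group, 4362 bp from the nearest GATA1 interval.

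The second group at LMO2 spanned 20.8 kb (33958536 to 33979369) and held the other 3 intervals in both lists, with 3 GATA1 only. Those in both lists were 33958842 to 33959202 (361 bp), 33963204 to 33963582 (379 bp) and 33966218 to 33966765 (548 bp). They followed one another with no other interval between them, at gaps of 4001 and 2635 bp. GATA1-only intervals stood on both sides of these 3. Of 4 groups of 3 or more intervals in the 6 windows, 2 at TAL1 and 2 at LMO2, all 4 held both factors. Among the 2328 groups of 3 or more in the lists, 74.0% did. The 4 groups held 5 or 6 intervals each, and only 560 of the 2328 held 5 or more. The share with both factors was not computed for groups of that size, so the 2 values are not of like groups.

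LDB1, the self-associating cofactor, had 1 interval in its window of 33 kb (chromosome 10, 103857 to 103890 kb). It was in both lists, from 103872065 to 103872465 (401 bp). The next GATA1 interval lay 25892 bp away and the next TAL1 interval 287209 bp away. The TAL1 list held 0.297 intervals per 100 kb on chromosome 10, beside 0.294 over chromosomes 1 to 22 and X. In the 1 Mb on either side of the window it held 0.55 per 100 kb. How common such a distance is was not determined. Among stretches of 33 kb, 5.83% held an interval in both lists, and 37.8% of those that held any interval. LDB1 lies between HPS6 and PPRC1 in the RefSeq annotation.

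CBFA2T3, the corepressor, had 3 intervals in 123 kb (chromosome 16, 88931 to 89054 kb), 2 in both lists and 1 GATA1 only. The 2 in both lists lay close together near the upper end of the window, at 89043357 to 89043754 (398 bp) and 89045391 to 89045767 (377 bp), with 1636 bp between them. The GATA1-only interval (88937723 to 88937906, 184 bp) lay near the other end, and the 105450 bp between it and the pair held no listed interval. Among stretches of 123 kb, 6.59% held at least 2 intervals in both lists, and 19.8% of those that held any interval. The GATA1 density of 2.44 per 100 kb was below the 3.0 per 100 kb of the 1 Mb on either side, and that of TAL1 was 1.63 beside 1.35. With 25 kb added on each side the window held 5 intervals in both lists, so the count depends on where the window ends.

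**Figure D3:**
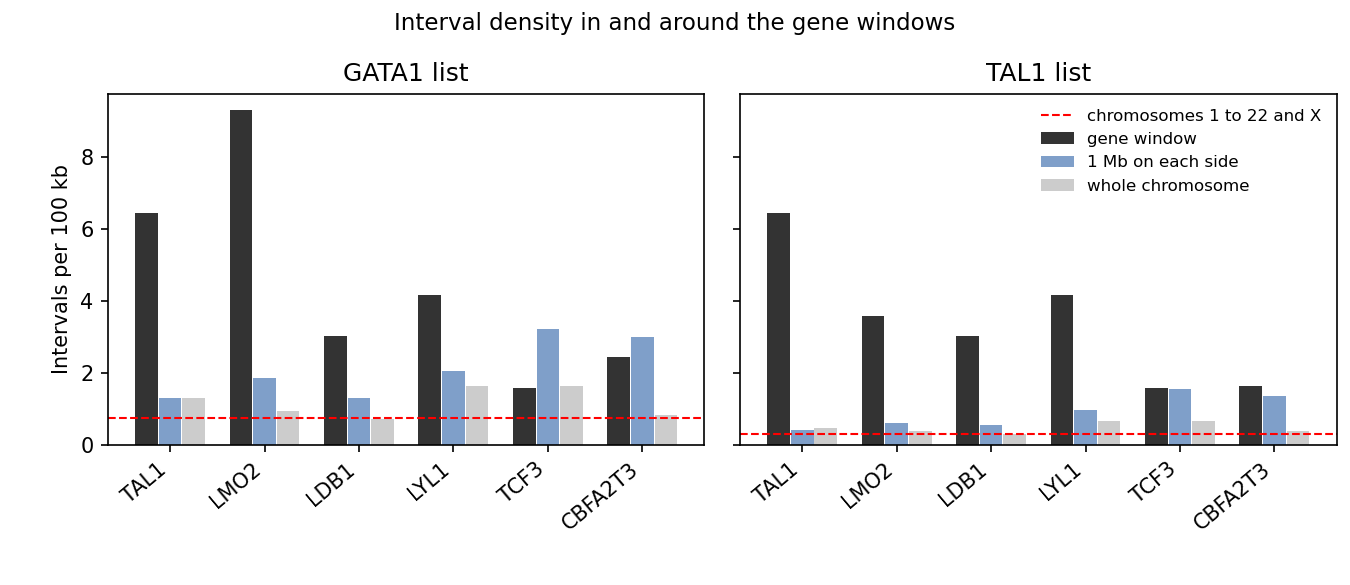
Intervals per 100 kb in the GATA1 list (left) and the TAL1 list (right) for each gene window (dark bars), the 1 Mb on each side of it (blue) and its whole chromosome (grey), with the dashed line at 0.75 for GATA1 and 0.294 for TAL1 over chromosomes 1 to 22 and X. The TAL1, LMO2, LDB1 and LYL1 windows stand above their surroundings in both lists, and the GATA1 bars of TCF3 and CBFA2T3 stand below them. At LDB1 and LYL1 this rests on 1 interval each, which in windows of 33 and 24 kb already gives 3.03 and 4.17 per 100 kb. At least 1 interval was held by 15.4% and 12.3% of stretches of these lengths. The TCF3 bars of the window also rest on 1 interval, and the GATA1 bar of CBFA2T3 on 3.

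The 4 TAL1-only intervals were at TAL1 (3) and LMO2 (1). Of these, 2 lay within 1 kb of a GATA1 interval, at 131 and 763 bp, and the others at 1097 and 4362 bp. Among all TAL1-only intervals 18.2% lay within 1 kb of a GATA1 interval. Of the 13 GATA1-only intervals, 2 lay within 1 kb of a TAL1 interval, beside 5.25% of all GATA1-only intervals. Both were at LMO2, at 33915249 to 33915429 (566 bp from it) and 33958536 to 33958739 (102 bp from it), and were picked out after their distances were seen. The 13 lay at a median of 8.76 kb from the nearest TAL1 interval, with a range of 0.102 to 70.9 kb. At gaps this short the lists cannot tell separate sites from parts of 1 enriched region, since they give no height and no summit.

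The widths in both lists and of GATA1 alone had medians near those of their class over the genome, and 3 of the 4 TAL1-only intervals were narrower than their class median. The 15 intervals in both lists measured 152 to 758 bp with a median of 377 bp, beside 373 bp for all 7029 in both lists, and 8 of the 15 were wider than that. The 13 GATA1-only intervals measured 149 to 506 bp with a median of 267 bp, beside 264 bp for all 15740. The 4 TAL1-only intervals measured 127, 139, 216 and 331 bp with a median of 177.5 bp, beside 274 bp for all 1885. Within the TAL1 window the intervals in both lists had a median of 281 bp, below the 373 bp of their class, and 2 of the 6 were wider than that. An interval in both lists has the same ends in each, because the lists share a common set of boundaries. Its width is therefore not a separate measure for either factor.

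**Figure D4:**
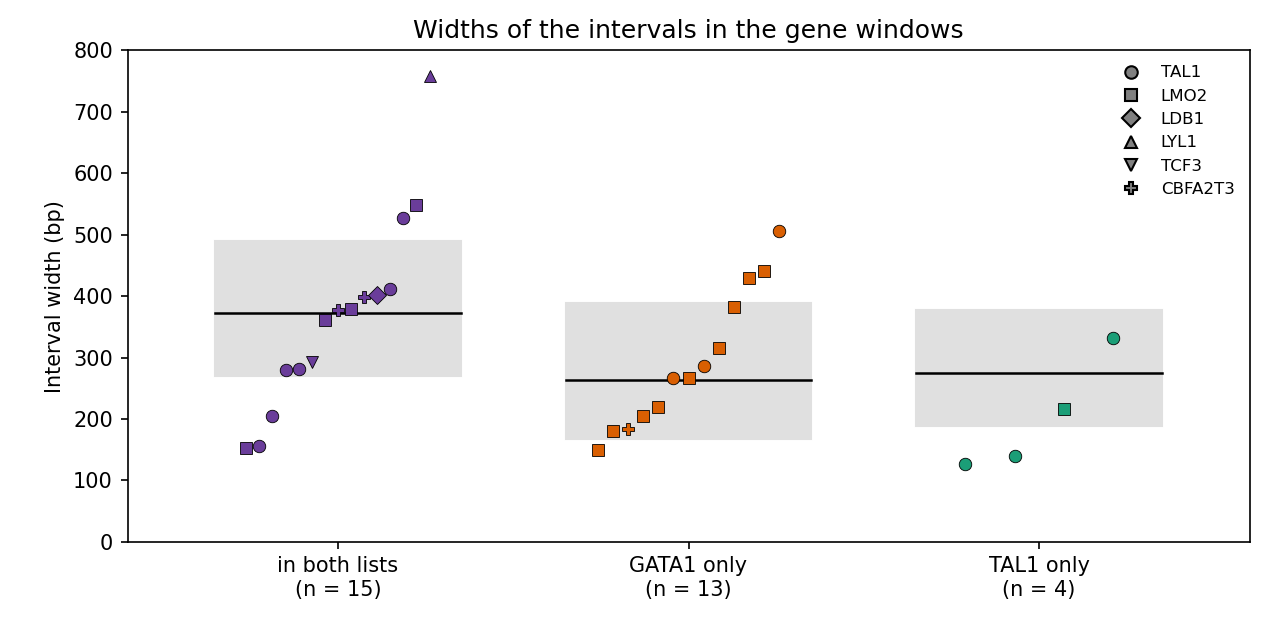
Width in bp of each interval in the 6 windows, by class, with 1 point per interval, its shape giving the gene and its place within a class the rank by width. Grey boxes span the lower to upper quartile and black lines the median over all intervals of the class. The LYL1 interval at 758 bp stands above the rest, and 3 of 4 TAL1-only intervals lie below their class median.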

How the data were processed

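Chromatin of nuclei digested with micrococcal nuclease was precipitated and sequenced, per the labels' protocols. The authors deposited each list as 3 columns (chromosome, start, end) with no height, score or p-value. Trimmomatic, Bowtie2, MACS2, deepTools and hg19 are named per the submitters' processing notes, without versions or thresholds. Read depth is unknown, so the numbers of GATA1 and TAL1 intervals cannot be set against depth. Positions are counted from 1.

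Intervals were classed and counted in Python 3.11.15 with pandas 2.3.3 and numpy 2.4.6. Window counts were checked with bedtools 2.31.1 and the functions were tested on simulated lists. Exact (Clopper-Pearson) 95% intervals came from scipy 1.17.1, chromosome lengths from GenomeInfoDb 1.38.1 and figures from matplotlib 3.10.9. Groups were joined across gaps of up to 12.5 kb. No p-value was computed. All 6 genes are described. Every interval in both lists or TAL1 only is named, and of more than 8 GATA1-only intervals the first, last and widest, with others at LMO2 picked out after their values were seen. The members and lists were chosen with earlier results of these data known. Other genes of the complex were not counted, because no hg19 gene positions were used here. RefSeq gene order and promoters are those of GRCh38.p14. The 4 mitochondrial TAL1 intervals were left out of all shares and densities.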

Additional observations from a re-analysis of the deposited data

How the results depend on the processing

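No paired analysis was possible because each factor has 1 library. Counting by midpoint changed no count. The share of GATA1 intervals also in the TAL1 list was 53.6% and ranged from 47.4% (without the TAL1 window) to 73.3% (without the LMO2 window). It was 60.7% when a TAL1 interval within 1000 bp sufficed, 64.3% with intervals below the median width left out and 55.0% with intervals within 2 kb joined, beside 34.5%, 42.2% and 33.6% over the genome. The share of TAL1 intervals also in the GATA1 list was 89.5%, 90.0% and 91.7% under these 3 settings, beside 82.7%, 85.3% and 81.8%, and 76.5 to 90.0% with a window left out. With windows widened by 10 kb on each side, LYL1 gained 1 GATA1-only and CBFA2T3 1 TAL1-only interval, each from 0. CBFA2T3 then also had 3 intervals in both lists rather than 2. With 25 kb, LDB1 had 1 and TCF3 2 GATA1-only intervals, and the TAL1 window had 4 rather than 3. LYL1 had 2 in both lists and 1 GATA1 only, and CBFA2T3 had 5 in both lists and 1 TAL1 only. The wider windows take in more intervals by construction. Of 77 values under alternatives, 68 stayed within 1.5 times the count, the 95% interval of the share or the quartiles of the width. The 68 include the midpoint counts, counts of 0 that stayed at 0 and shares judged against wide intervals. The tally is therefore no measure of robustness. Groups of 3 or more intervals numbered 4, 4 and 6 at joining distances of 5 kb, the distance used and 25 kb. Depth is unknown, so an interval absent from a list does not show that the factor was absent.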
